A study of Mus musculus with 8 samples.

Results

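In the olfactory epithelium, which holds the olfactory sensory neurons (OSNs), the genes Nqo1, Acsm4 and Ncam2 serve as markers of zones. They were matched by symbol to the annotation of the array. Each of the 3 was measured by 1 transcript cluster, a set of probes combined into 1 value. In all, 19938 genes had a cluster of their own, and some had several. Olfactory mucosae were compared between 4 mice with the genotype OmpCre:Lhx2(fl/fl), called knockouts, and 4 littermate controls, all taken at postnatal day 26 and of a mixed 129 x C57BL/6J background. In the knockouts, Cre recombinase encoded in the Omp locus, which mature OSNs transcribe, could delete the floxed exons of both Lhx2 alleles. Of the controls, 3 carried OmpCre with 1 floxed allele (OmpCre:Lhx2(fl/+)) and 1, control replicate 1, had a floxed allele and no Cre (Lhx2(fl/+)). The deletion is incomplete in this model per the study, and other cells of the mucosa keep the gene.

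The olfactory epithelium is divided into zones from dorsal to ventral, and each odorant receptor (OR) gene is used by OSNs of 1 zone. Dorsal OSNs express the class I ORs, most trace amine-associated receptors (TAARs) and part of the class II ORs, and they also make enzymes that ventral OSNs lack. Nqo1 encodes NAD(P)H quinone dehydrogenase, which reduces quinones and is a textbook target of the transcription factor NRF2. Acsm4, also called O-MACS, encodes a mitochondrial medium-chain acyl-CoA synthetase of the dorsal zone. Arrays of whole mucosa do not show which of its cells hold the Acsm4 mRNA. Ncam2, also called OCAM or RNCAM, encodes an adhesion molecule of the immunoglobulin superfamily that covers OSN axons from the ventral zones and is missing from dorsal ones. The study of these mice asked whether OR expression still needs Lhx2, a LIM homeodomain factor, in mature OSNs. The zone markers allow a like question to be asked of genes that are not ORs, in whole mucosa and not in OSNs alone.

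The promoter windows of both dorsal genes are shown because the genes share a zone and differed in response. Each runs from 250 bases before to 50 bases after the annotated start, 5′ to 3′, as given by RefSeq for GRCm38.p6, and capitals mark matches to the motifs searched. The Nqo1 window is on the minus strand of chromosome 8 (chr8:107403156-107403455) and the Acsm4 window on the plus strand of chromosome 7 (chr7:119689776-119690075).
Nqo1: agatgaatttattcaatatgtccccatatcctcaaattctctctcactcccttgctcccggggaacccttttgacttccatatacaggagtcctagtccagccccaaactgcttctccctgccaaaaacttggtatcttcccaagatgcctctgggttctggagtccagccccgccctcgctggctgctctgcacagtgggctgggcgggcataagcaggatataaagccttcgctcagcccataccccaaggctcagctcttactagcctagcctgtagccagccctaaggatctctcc
Acsm4: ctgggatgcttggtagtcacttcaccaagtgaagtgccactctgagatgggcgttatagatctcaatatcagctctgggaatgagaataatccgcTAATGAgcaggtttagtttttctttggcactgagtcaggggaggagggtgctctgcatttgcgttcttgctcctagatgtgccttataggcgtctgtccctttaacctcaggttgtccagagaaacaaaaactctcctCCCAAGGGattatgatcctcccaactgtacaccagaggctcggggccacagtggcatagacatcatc
Both strands were searched for TAATTA and TAATNA (homeodomain cores, of which the second includes the first), CCCNNGGG (the palindromic core bound by EBF factors), TGACNNNGC (the antioxidant response element core) and GCGTG (the core of the aryl hydrocarbon receptor element). The Nqo1 window held no match, which says only that these letters are not in it. The Acsm4 window held TAATNA once, 155 bases before the start, and CCCNNGGG once, 17 bases before it. The Ncam2 window (chr16:81200447-81200746, plus strand), which is 75.7% G and C against a median of 52.7% over all windows, held only GCGTG, 105 bases before the start. Of 32851 windows of the same length, 5.29% held TAATTA, 26.5% TAATNA, 13.7% CCCNNGGG, 12.4% TGACNNNGC and 32.4% GCGTG, so each match found is a common one.

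Array values are on a log2 scale, so a difference of 1 is a doubling or a halving. Lhx2 itself averaged 12.09 ± 0.09 in knockouts and 12.34 ± 0.04 in controls (SD, n = 4 each). It was lower by 0.25 and the groups did not overlap, as for 7.83% of named clusters in this direction. But the call (limma adjusted p = 0.0383) was lost when any mouse but knockout replicate 3 was left out (-0.22 to -0.27). It was also lost after centring on the array median (-0.19, limma adjusted p = 0.117) and over all clusters of the table (limma adjusted p = 0.0788). The sign turned relative to the mature OSN list (0.35). Omp, which carries the Cre insertion, averaged 12.62 ± 0.26 in knockouts and 13.46 ± 0.26 in controls (SD, n = 4 each), with the control without Cre the highest at 13.78. The 17 measured markers of mature OSNs had a mean between 11.75 and 11.83 in the knockouts, against 12.38 to 12.40 in the controls. In whole mucosa, fewer cells of a type and less RNA per cell cannot be told apart. The defining markers of the tissue were bright, since Omp and Cyp2g1, a cytochrome P450 of sustentacular cells, had means over the 8 arrays of 13.04 and 14.08. The first digit of the mouse numbers in the titles, 5, 7 or 9, splits the arrays into 3 sets with knockouts and controls in each, called title series, and differences inside each set are given beside the results.

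The 3 zone markers did not respond alike. Nqo1 was lower by more than a factor of 2 in the knockouts, Acsm4 was nearly level between the groups, and Ncam2 differed by less than the spread between mice. By the limma fit across all 23410 named clusters, 1 of the 3 genes was called lower and none higher at an adjusted p under 0.05, against 6.29% of all named clusters in the lower direction and 2.10% in the higher one. Nqo1 was also the only one of them below 0.05 before adjustment.

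Nqo1 (transcript cluster 10581538) had log2 values of 11.146, 11.248, 11.218 and 10.882 in knockout replicates 1 to 4, against 12.366, 12.396, 11.999 and 12.320 in control replicates 1 to 4. Every knockout lay below every control, and the highest knockout was 0.75 below the lowest control. Groups that do not overlap, with the knockouts lower, were found for 7.83% of named clusters. The mean was 11.12 ± 0.17 in knockouts and 12.27 ± 0.18 in controls (SD, n = 4 each). Nqo1 thus fell by 1.15 ± 0.11 (SE) on the log2 scale, with a 95% interval of -1.39 to -0.90 (limma adjusted p = 6.59e-05). On a linear scale this is 45.2% of the control level. The control without Cre, at 12.37, lay within the range of the 3 controls with Cre. The difference was -1.18, -0.78 and -1.44 within title series 5, 7 and 9. Control replicate 3, in series 7, was the lowest control and knockout replicate 4, in series 9, the lowest knockout.

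Among 20741 single-symbol clusters that are neither ORs nor TAARs, the Nqo1 decrease ranked 31. Among ORs called lower, 452 of 853 fell by more than Nqo1. Of the 17 mature OSN markers, only Cnga4, a subunit of the ion channel of odor transduction, had a greater decrease (-2.02 ± 0.12, SE).

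**Figure D1:**
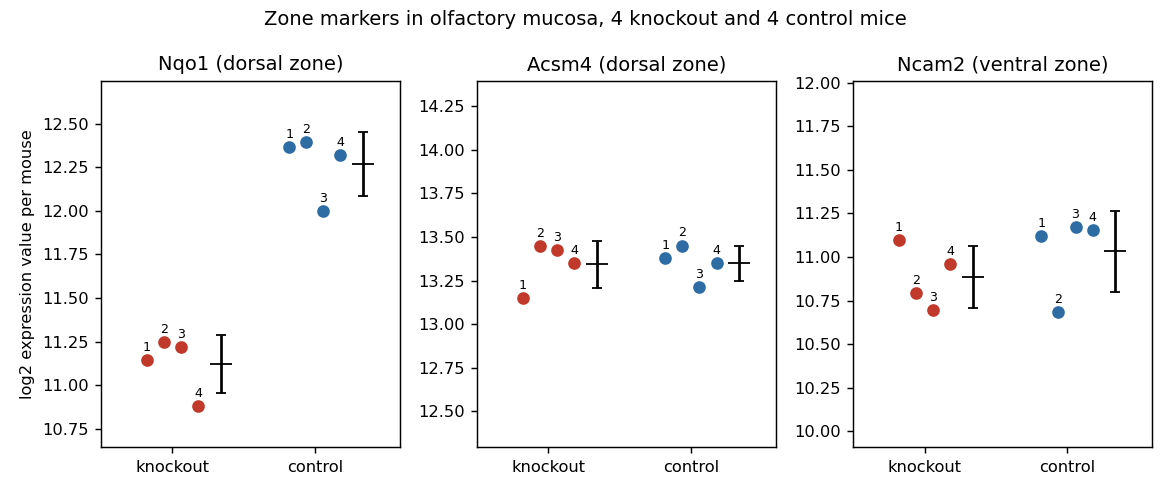
Log2 expression value of each zone marker (y axis, 1 scale length in all panels) in 4 knockout mice (red) and 4 control mice (blue). Numbers are replicates and bars the group mean and SD. For Nqo1 the highest knockout lies 0.75 below the lowest control, while the groups overlap for Acsm4 and Ncam2.

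Acsm4 (transcript cluster 10556749), the other dorsal gene, had values of 13.15, 13.45, 13.42 and 13.35 in knockout replicates 1 to 4, against 13.38, 13.45, 13.21 and 13.35 in control replicates 1 to 4. The groups overlapped over most of their range. The means were 13.34 ± 0.14 in knockouts and 13.35 ± 0.10 in controls (SD, n = 4 each). The difference was -0.01 ± 0.08 (SE), with a 95% interval of -0.19 to 0.18 (limma adjusted p = 0.982). A decrease of more than 12.4% or an increase of more than 13.3% lies outside that interval. Its sign turned with the scaling (0.05 after centring on the array median, which moved the median of all named clusters to 0.11) and with single mice left out, so no direction is given for it. Within title series 5, 7 and 9 the difference was -0.12, 0.21 and 0.00.

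Ncam2 (transcript cluster 10436636) had values of 11.10, 10.79, 10.69 and 10.96 in knockout replicates 1 to 4, against 11.12, 10.69, 11.17 and 11.16 in control replicates 1 to 4. The groups overlapped, and 3 controls lay above all knockouts while control replicate 2 (10.685) was the lowest of the 8 mice, just under knockout replicate 3 (10.693). Means were 10.89 ± 0.18 in knockouts and 11.03 ± 0.23 in controls (SD, n = 4 each). The difference of -0.15 ± 0.13 (SE) had a 95% interval of -0.43 to 0.13 (limma adjusted p = 0.609). On a linear scale the interval runs from -25.7% to 9.8%. Without control replicate 2 the difference was -0.26, which still did not pass (unadjusted p = 0.0264, limma adjusted p = 0.211). Within title series 5, 7 and 9 it was 0.04, -0.48 and -0.20. Ncam2 was the most variable of the 3 within groups, with a pooled SD of 0.21, larger than that of 85.9% of named clusters, whose median was 0.12. Acsm4 had a pooled SD of 0.12 and Nqo1 one of 0.18.

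**Figure D2:**
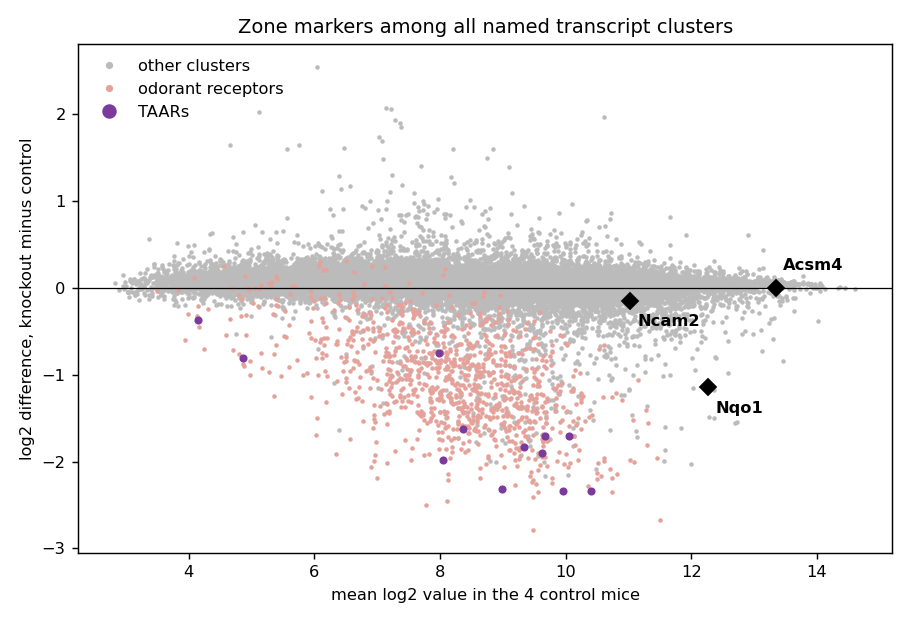
Log2 difference, knockout minus control (y axis), of all 23410 named clusters against their mean log2 value in the 4 controls (x axis). ORs are pale red, TAARs purple, all others grey, and the 3 zone markers black diamonds; Nqo1 at -1.15 lies among the ORs in size of decrease, while Acsm4 (-0.01) and Ncam2 (-0.15) lie in the dense band near 0.

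Whether the markers differed from each other was tested on the difference of their log2 values within each array, in which the scaling of an array cancels. An exact two-sided permutation test was run over the 70 assignments of 8 mice, whose smallest p is 0.0286, with adjustment over 6 such differences. Nqo1 minus Acsm4 lay between -2.47 and -2.0 in the knockouts, against -1.21 to -1.01 in the controls. The responses differed by -1.14 (exact permutation p = 0.0286, adjusted p = 0.0343), and by -1.07, -0.99 and -1.44 in title series 5, 7 and 9. Nqo1 minus Ncam2 lay between -0.07 and 0.52 in the knockouts, against 0.83 to 1.71 in the controls. Here the responses differed by -1.0 (exact permutation p = 0.0286, adjusted p = 0.0343), with -1.23, -0.30 and -1.24 in title series 5, 7 and 9. Acsm4 minus Ncam2 overlapped between the groups, at 2.05 to 2.73 in knockouts and 2.04 to 2.77 in controls, with a difference of 0.14 (exact permutation p = 0.543, adjusted p = 0.543) and -0.16, 0.69 and 0.20 by series. The first and the second of these calls were lost without knockout replicate 1 (-1.21 and -0.94) or knockout replicate 4 (-1.06 and -0.895), with exact adjusted p of 0.0571 for Acsm4 and 0.0686 for Ncam2 from the 35 assignments of 7 mice. For Nqo1 minus Acsm4 the exact permutation p before adjustment stayed at 0.0286 in both cases. Its adjusted p rose because other differences among the 6 had a larger p.

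The decrease of Nqo1 also exceeded that of the mature OSN markers. Relative to their mean on the same array, Nqo1 lay between -0.91 and -0.54 in the knockouts, against -0.38 to 0.00 in the controls, a difference of -0.55 (exact permutation p = 0.0286, adjusted p = 0.0343). It was -0.60, -0.16 and -0.83 within title series 5, 7 and 9. On this scale limma called 3.28% of named clusters lower, with Nqo1 among them (-0.55 ± 0.11 SE, adjusted p = 0.000631). The study's own rescaling rested on a longer list of mature OSN mRNAs and is not this scale. Relative to the mature OSN markers, Acsm4 and Ncam2 were higher in knockouts than in controls by 0.59 and 0.45 (exact permutation p = 0.0286, adjusted p = 0.0343 for each). But so were most genes, since 93.4% of named clusters were called higher on this scale and the median of all was 0.65. With any 1 knockout left out the adjusted p for Nqo1 was 0.0686 (exact permutation, differences of -0.47 to -0.59). For Acsm4 it was 0.0571 without knockout replicate 1 (0.67) or 4 (0.59), for Ncam2 0.0571 without knockout replicate 1 (0.39) or 4 (0.425) and 0.0686 without control replicate 2 (0.33). Without knockout replicate 1 or 4 the exact permutation p before adjustment stayed at 0.0286 for both Acsm4 and Ncam2.

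**Figure D3:**
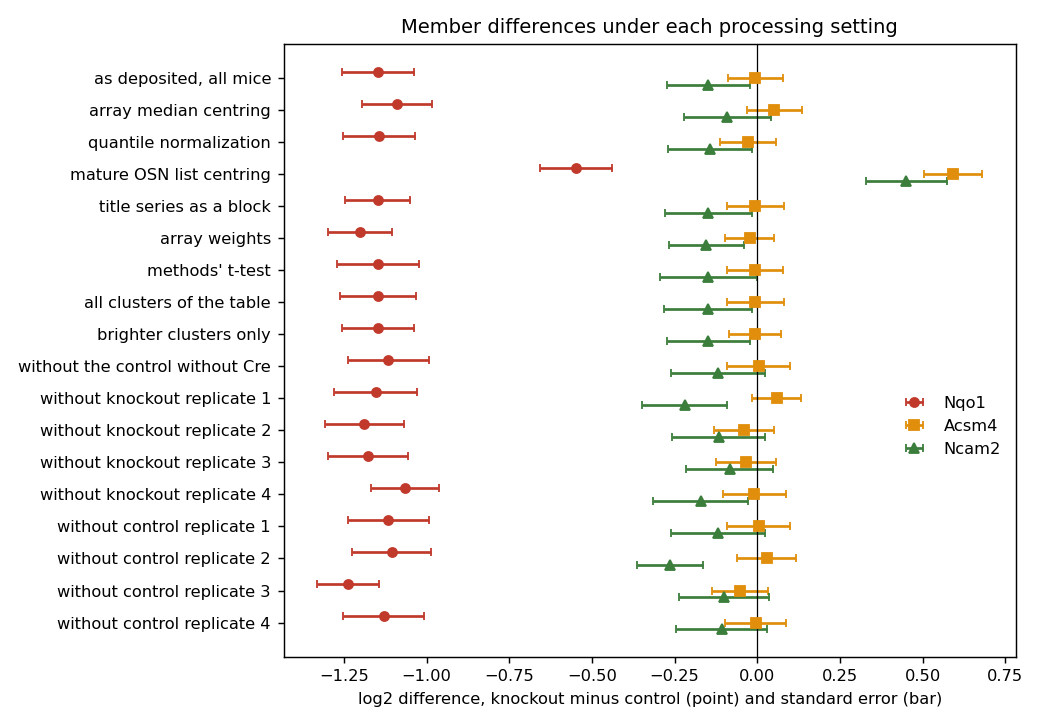
Log2 difference, knockout minus control (x axis; points, with bars of 1 standard error), of Nqo1, Acsm4 and Ncam2 under each processing setting (y axis). Nqo1 stays between -1.24 and -1.07 except after centring on the mature OSN list (-0.55), where Acsm4 and Ncam2 stand at 0.59 and 0.45.

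Receptors fell across both classes. Of 889 class II OR clusters, which are used in all zones, 763 (85.8%) were called lower and 0 higher, with a median of -1.09, beside 6.29% of all named clusters called lower. Of 120 class I OR clusters, which are mostly dorsal, 80 (66.7%) were called lower and 0 higher, with a median difference of -0.81, beside a median of 0.05 over all named clusters. Their mean lay between 7.37 and 7.77 in the knockouts, against 8.12 to 8.55 in the controls. By title series the class I mean differed by -0.88, -0.35 and -1.18, beside -1.18, -0.78 and -1.44 for Nqo1. Set against the class I mean on each array, Nqo1 was 0.33 lower in knockouts and Acsm4 0.82 higher, given as description. Of 12 TAAR clusters, 11 were called lower, with a median of -1.77 and with -1.68, -1.29 and -1.90 within the series.

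Single class II receptors of known zone fell on both sides. Of 3 measured dorsal ones, Olfr73 (-1.44 ± 0.14, SE) and Olfr16 (-1.18 ± 0.19) were called lower, and Olfr151 differed by -1.02 ± 0.38 (limma adjusted p = 0.170). Of 6 ventral ones, 5 were called lower, among them Olfr1507 (-2.28 ± 0.13), Olfr1508 (-2.16 ± 0.12), Olfr15 (-2.0 ± 0.12) and Olfr1509 (-1.93 ± 0.12). Olfr156 differed by -0.53 ± 0.15 (limma adjusted p = 0.0677), and Ncam2, of the same zones, was not called either (all fits by limma). Beside these counts, 6.29% of all named clusters and 85.8% of class II OR clusters were called lower. Dorsal and ventral receptors were not tested against each other.

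The mice also differed within each group. Control replicate 3 had the lowest control value for Nqo1, Acsm4 (13.21), the class I mean (8.12) and the TAAR mean (8.29), and the highest for Ncam2 (11.17). Control replicate 2 had the highest control value for Nqo1 (12.40), Acsm4 (13.45) and the TAARs (8.59), and the lowest for Ncam2 (10.69) and the ventral class II receptors (9.22). The class I mean was instead highest in control replicate 4 (8.55), with control replicate 2 at 8.44. The ventral class II mean was highest in control replicate 1 (9.42), with control replicate 3 at 9.32. The pattern was not one of dorsal genes alone. Control replicate 3 was also the lowest control, and control replicate 2 the highest, for the mean of the NRF2 list (10.86 and 11.11), the retinoid list (9.63 and 9.88) and the markers of glands and respiratory epithelium (11.08 and 11.47). Among sustentacular markers (11.49) and for Omp (13.22) control replicate 3 was again the lowest control. Knockout replicate 3, also of title series 7, was the lowest knockout for the NRF2 (10.87), retinoid (9.71) and gland (10.99) means. The same held for the sustentacular markers (11.52) and Omp (12.37). Knockout replicate 2, of title series 5 like control replicate 2, was the highest knockout for the NRF2 (11.09), retinoid (9.93) and gland (11.41) means. The part of the title series in this was not tested. The mean of the dorsal class II receptors followed Olfr151, at 5.93, 7.72, 5.95 and 7.30 in control replicates 1 to 4, whereas Olfr73 and Olfr16 were higher in control replicate 1 (9.28 and 9.16) than in control replicate 2 (9.21 and 9.03). Among the knockouts, replicate 1 had the lowest Acsm4 (13.15) and the highest Ncam2 (11.10), and replicate 3 had the lowest Ncam2 (10.69) with the highest class I (7.77) and TAAR (7.0) means. Acsm4 and Ncam2 deviated from their group means in opposite directions in control replicates 2 and 3 and knockout replicates 1, 2 and 3, and both were at or above the mean in knockout replicate 4 and control replicates 1 and 4. The pattern was noticed in the data, and its part in the group differences was not tested.

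**Figure D4:**
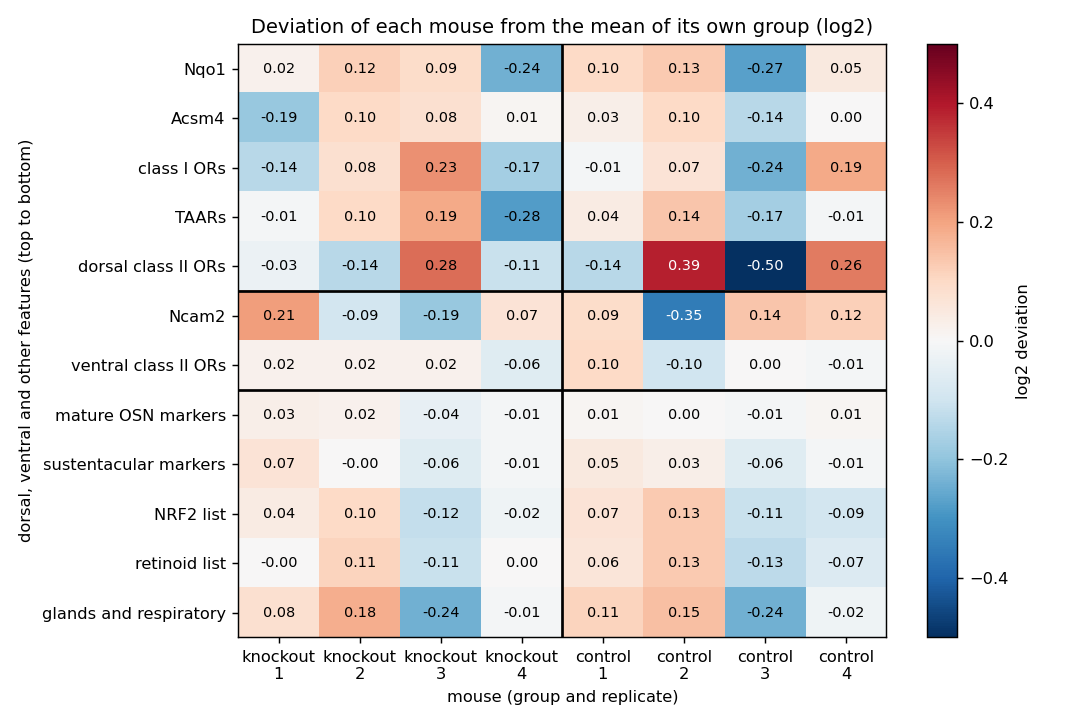
Deviation of each mouse (x axis) from the mean of its own group, in log2 units, for dorsal features, ventral features and lists not chosen by zone (y axis, in 3 blocks from the top); all but Nqo1, Acsm4 and Ncam2 are means over a class or list. Control replicate 2 is at -0.35 for Ncam2 and 0.13 for Nqo1, and control replicate 3 at 0.14 and -0.27. The NRF2 (-0.11), retinoid (-0.13) and gland (-0.24) lists are also low in control replicate 3, as in knockout replicate 3 (-0.12, -0.11 and -0.24). Mature OSN (-0.01) and sustentacular (-0.06) markers deviate less in control replicate 3.

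Other genes with a dorsal or ventral pattern moved both ways. Of 6 measured, 1 was called lower, 1 higher and 4 neither, beside 6.29% of all named clusters called lower and 2.10% called higher. Robo2, a Slit receptor of dorsal OSN axons, had 10.86, 10.79, 10.93 and 10.86 in knockout replicates 1 to 4, against 11.19, 11.20, 11.25 and 11.28 in control replicates 1 to 4. Every knockout lay below every control, which was found for 7.83% of named clusters. The means differed by -0.37 ± 0.06 (SE, limma adjusted p = 0.00171), but Robo2 was higher by 0.23 relative to the mature OSN list. Sema3f, a secreted semaphorin made by dorsal OSNs, had 10.50, 10.45, 10.44 and 10.56 in knockout replicates 1 to 4, against 9.83, 9.93, 9.75 and 9.76 in control replicates 1 to 4. It was higher by 0.67 ± 0.06 (SE, limma adjusted p = 6.08e-05). Thus the dorsal genes named here that are not ORs or TAARs did not move in 1 direction. Nqo1 and Robo2 were called lower and Sema3f higher, while Acsm4 was not called (-0.01, limma adjusted p = 0.982). Nrp2, a semaphorin receptor of ventral axons, differed by 0.04 ± 0.10, and the nuclear factor I genes Nfia, Nfib and Nfix, which act in zone identity, by 0.12, 0.07 and -0.19.

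Genes tied to each marker by pathway or family showed few calls. Of 19 measured genes of the NRF2 pathway and antioxidant response, 1 was called lower and none higher, a share near the 6.29% and 2.10% of all named clusters, with a median of 0.00 against 0.05 over all named clusters. The called gene was Nfe2l2, which encodes NRF2, at 11.92 ± 0.15 in knockouts and 12.24 ± 0.09 in controls (SD, n = 4 each; -0.32 ± 0.08 SE, limma adjusted p = 0.0414). Centring on the array median, by which 5.73% of named clusters were called lower, ended this call (-0.27, limma adjusted p = 0.0524), as did leaving out any of control replicates 1, 2 and 4 or knockout replicates 2, 3 and 4 (-0.25 to -0.35, adjusted p = 0.0627 to 0.124). Relative to the mature OSN list it was 0.27 higher. Hmox1, heme oxygenase 1 and also a target of NRF2, differed by -0.40 ± 0.11 (limma adjusted p = 0.0615), and Me1, malic enzyme, by 0.59 ± 0.20 (limma adjusted p = 0.139). No gene of the list fell as far as Nqo1. Of 9 genes of the aryl hydrocarbon receptor pathway, which also acts on Nqo1 in other tissues, none was called and differences ran from -0.07 to 0.16. Nqo2, the paralog of Nqo1, was the highest of these, at 9.06 ± 0.12 in knockouts and 8.90 ± 0.03 in controls (SD, n = 4 each; limma adjusted p = 0.266).

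None of the 4 measured relatives of Acsm4 was called. Acsm1, Acsm2, Acsm3 and Acsm5 differed by 0.15, -0.01, 0.14 and 0.13, with limma adjusted p of 0.503 to 0.945. Of 6 genes of the neural cell adhesion and polysialic acid list, 2 were called lower and none higher, where 6.29% of all named clusters were called lower and 2.10% higher. Ncam1, the paralog of Ncam2, was at 12.69 ± 0.04 in knockouts and 12.91 ± 0.03 in controls (SD, n = 4 each; -0.22 ± 0.05 SE, limma adjusted p = 0.0303), and L1cam, a related adhesion molecule of axons, at 10.15 ± 0.05 in knockouts and 10.40 ± 0.04 in controls (-0.25 ± 0.06 SE, limma adjusted p = 0.0186). The 95% interval of Ncam2 (-0.43 to 0.13) includes changes of that size. The Ncam1 call did not hold with arrays centred on their median (-0.16, limma adjusted p = 0.117) or without any mouse but knockout replicate 3 and control replicate 4 (-0.20 to -0.23). The L1cam call was lost without knockout replicate 2 or 3 or control replicate 1 or 2 (-0.23 to -0.26, adjusted p = 0.0560 to 0.0569). Relative to the mature OSN list Ncam1 and L1cam were higher, by 0.38 and 0.35. Of 14 measured genes of retinoid metabolism and signalling none was called, and differences ran from -0.33 to 0.22.

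Counts of cell type markers stand beside 6.29% of all named clusters called lower and 2.10% called higher. Of 10 measured sustentacular cell markers none was called, and their mean lay between 11.52 and 11.66 in knockouts and between 11.49 and 11.60 in controls. Among 14 immature OSN markers Stmn4 was called lower (-0.59 ± 0.13, SE) and Tubb3 higher (0.41 ± 0.06), both of them cytoskeletal genes, with means of 10.99 to 11.14 in knockouts and 11.02 to 11.09 in controls. Of 11 basal cell and progenitor markers none was called, although all 11 were higher in knockouts. Their median was 0.13, beside 0.05 over all named clusters. Their means overlapped, at 9.31 to 9.42 in knockouts and 9.23 to 9.34 in controls. For the macrophage and blood list none of 7 was called (8.58 to 8.79 in knockouts, 8.45 to 8.80 in controls). For glands and respiratory epithelium 2 of 12 were called lower, the cilia genes Foxj1 (-0.42 ± 0.10, SE) and Tekt1 (-0.43 ± 0.06), and the means overlapped (10.99 to 11.41 in knockouts, 11.08 to 11.47 in controls). The part of these cell types in the results was not tested.

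**Figure D5:**
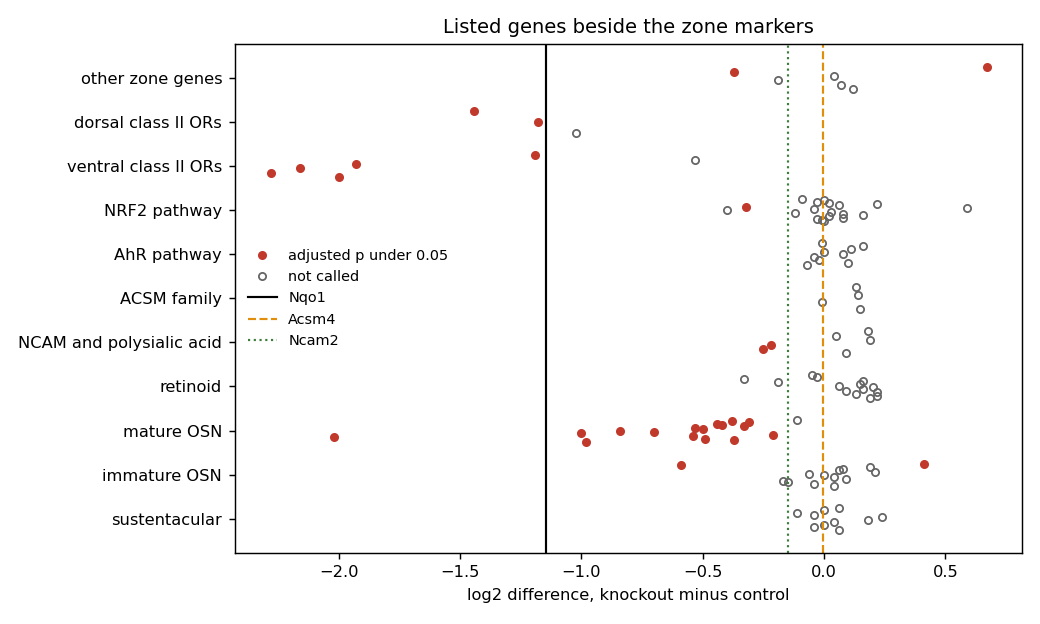
Log2 difference, knockout minus control (x axis), of each gene in the lists (y axis), filled where the limma adjusted p is under 0.05. Vertical lines mark Nqo1 (-1.15), Acsm4 (-0.01) and Ncam2 (-0.15); the receptor lists reach past Nqo1, and in the mature OSN list only Cnga4 does.

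Genes nearest to each marker on its chromosome mostly did not change. Of the 10 closest measured genes around Nqo1 on chromosome 8, among them Nfat5 and Nob1 on either side, none was called, with differences of -0.19 to 0.08. Around Ncam2 on chromosome 16 none of 10 was called (-0.04 to 0.11). Around Acsm4 on chromosome 7, where Acsm1, Acsm2, Acsm3 and Acsm5 also lie, 1 of 10 was called. Of all named clusters, 6.29% were called lower and 2.10% higher. The called neighbour was on the higher side. It was Eri2, which encodes an exoribonuclease, and it was higher by 0.36 ± 0.07 (SE, limma adjusted p = 0.00891).

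The profiles most like each marker were sought by the root-mean-square difference over the 8 arrays, after centring each gene on its own control mean, among genes within 2 log2 units of the marker's control mean. For Nqo1, the closest of 3536 genes were Olfr332 (0.134) and Olfr239 (0.156), both ORs, then Lrrn1 (0.158), Pcolce2 (0.166) and Dnajb13 (0.169), against a median of 0.84 over all candidates. Their differences were -1.25 to -1.0, close to that of Nqo1 because they were chosen by likeness to it. For Acsm4, they were Slc38a2 (0.044), an amino acid transporter, Cyb5r3 (0.052), a cytochrome b5 reductase, Adh1 (0.054), an alcohol dehydrogenase, Gpx6 (0.061), a glutathione peroxidase, and Chil6 (0.065), against a median of 0.15 over 1109 candidates. Their differences between groups were -0.02 to 0.05, close to that of Acsm4 because of this choice. For Ncam2, the closest of 7942 genes were Capsl (0.095), Lztfl1 (0.102), Tmem184c (0.104), Rpgrip1l (0.114) and H2bc21 (0.114), against a median of 0.25. Lztfl1 and Rpgrip1l encode proteins of cilia. None of these 5 genes was called, and their differences ran from -0.23 to -0.05. Both follow from the choice by likeness to Ncam2 and are no separate result.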

How the data were processed

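Total RNA from olfactory mucosae of 4 knockout and 4 control mice was hybridized to Affymetrix Mouse Gene 1.0 ST arrays, 1 per mouse. The deposited log2 values were made by the authors with Affymetrix Expression Console, at 1 value per transcript cluster. The sources used here give neither its version nor its settings. The study rescaled its values to mature OSN mRNAs, while here they were used as deposited (2.35 to 14.6, array medians 7.87 to 8.00). The study's list was far longer and by its account fell only slightly on average. The 17 mature OSN markers used here had a mean difference of -0.6, so centring on them is not the study's correction and moves values further. Arrays give no counts, so their number limits precision.

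Groups came from the phenotype in the labels. The sex and litter of each mouse were not known here. Replicate numbers only name mice, and p-values measure the spread between mice. Of 35557 clusters, 21789 had 1 symbol (21698 updated by Entrez ID through the RefSeq table of GRCm38.p6), 1621 several and 12147 none. The 23410 named clusters were fitted with limma (version 3.58.1, lmFit and eBayes, R version 4.3.3), and a call needed a Benjamini-Hochberg p below 0.05. Single genes take their SE and adjusted p from this fit. A gene with several clusters was represented by the one of highest mean. Class I ORs were those with a MOR family number under 100 among the synonyms. The fit was tested on simulated data. Members, lists and tests were chosen with earlier results of these data known. Named are the members, their family, up to 4 called genes per list (or the 2 brightest where none was called, not all shown), the 5 genes most alike and called neighbours. Cyp2g1, Hmox1, Me1, Olfr151, Olfr156, the other zone genes, Nfat5 and Nob1 were named after their values were seen.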

Additional observations from a re-analysis of the deposited data

Results flagged for a closer look

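In control mice, Ncam2 in replicate 2 (10.69) stood apart from the other 3 controls (11.12 to 11.17), with a gap of 0.89 of the group's range, above Dixon's critical value for 4 samples. The same mouse stood apart for Ncam2 relative to the mature OSN markers (-1.71). Of 22 groups of 4 examined these 2 were past the critical value, and chance alone passes about 1 in 20 groups. Without this mouse the difference in Ncam2, knockout minus control, was -0.26 (limma adjusted p = 0.211).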

How the results depend on the processing

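The Nqo1 decrease kept its direction and passed under all 17 alternatives (-1.24 to -1.07 with 1 mouse left out). Leaving out control replicate 1 and leaving out the control without Cre are the same fit, counted under both names among the 17. Acsm4 passed under none but centring on the mature OSN list (0.59) and changed sign after centring on the array median (0.052) and without the control without Cre (0.004); with 1 mouse left out it ran from -0.051 to 0.059. Ncam2 was at 0.45 after centring on the mature OSN list, and with 1 mouse left out at -0.26 to -0.08. That centring, which raises nearly all genes, also turned Lhx2 (0.35), Robo2 (0.23), Nfe2l2 (0.27), Ncam1 (0.38) and L1cam (0.35). With the title series as a block, 24 assignments allow no exact p below 0.0833, and adjusted p was 0.100 for Nqo1 minus Acsm4 (-1.14), Nqo1 minus Ncam2 (-0.999), and Nqo1 (-0.55), Acsm4 (0.59) and Ncam2 (0.45) minus the mature OSN markers. With 1 mouse left out these 5 ran from -1.21 to -1.06, -1.14 to -0.84, -0.63 to -0.47, 0.55 to 0.67 and 0.33 to 0.50, and Acsm4 minus Ncam2 from 0.05 to 0.29. Leaving Cnga4 or Omp out of the marker list, or taking its median, chosen after seeing the data, left Nqo1 at -0.64 to -0.56, Acsm4 at 0.50 to 0.58 and Ncam2 at 0.36 to 0.44, all past the threshold. Of named clusters, 1473 were called lower and 492 higher. Lower calls were 769 after centring on the mature OSN list and 760 among brighter clusters only. Higher calls were 1028 after centring on the array median, 21857 on the mature OSN list, 975 with the title series as a block, 1086 with array weights and 304 without the control without Cre. With 1 mouse left out, lower calls were 1302 to 1421 and higher calls 304 to 563. The methods' t-test gave 1532 lower and 774 higher at their p threshold, 792 and 131 with the adjusted p held to the same threshold, and 1266 and 438 at an adjusted p under 0.05. The cause of these shifts was not tested. No analysis paired by replicate number was possible because those numbers only name mice, and the fit with the title series as a block was the matched one.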
